A study of Mus musculus with 12 samples.

Results

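The 10 genes described here are Stat3, Stat4, Stat5a, Stat5b, Stat6, Cish, Socs1, Socs2, Socs3 and Pim1, taken by symbol from a table of 47359 genes. All 10 were measured in every library and passed the filter on low counts, as did 21565 genes in all. The libraries were made from transferred TH17 cells, sorted as CXCR6+ or SLAMF6+ from the CNS of RAG2-/- mice with experimental autoimmune encephalomyelitis, a model of multiple sclerosis, at its peak. The donor genotypes were 2D2-IL-17A/F-DKO (DKO, lacking both IL-17A and IL-17F) and 2D2-WT (WT), where 2D2 is a transgenic receptor for a myelin protein and RAG2-/- hosts lack their own T and B cells. There were 1 DKO CXCR6+, 1 DKO SLAMF6+, 5 WT CXCR6+ and 5 WT SLAMF6+ libraries, each of 1000 living cells. The age and sex of the mice, and whether replicates came from separate mice, are not in the labels, and the p-values therefore measure no more than the spread among these libraries, which may be technical.

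Cytokine receptors lack an enzyme of their own and pass their signal through Janus kinases (JAKs), which phosphorylate STAT transcription factors. In T cells, IL-6, IL-21 and IL-23 act largely through STAT3, IL-12 through STAT4, IL-2, IL-7 and IL-15 through STAT5A and STAT5B, and IL-4 through STAT6. STAT3 is needed to make TH17 cells, whereas STAT5 opposes STAT3 at the Il17a gene. Among the genes that STATs switch on are those of CISH and the SOCS proteins, which bind receptors or JAKs and close the loop, and that of the kinase PIM1, which supports survival and growth.

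Cish and Socs3 are shown first by sequence, since each holds in its promoter the palindrome that STAT dimers bind. The promoters run from 250 bases before to 50 bases after the RefSeq start (GRCm38.p6), 5′ to 3′ on the gene's strand, with TTCNNNGAA in capitals. The Cish window is chr9:107296409-107296708 on the plus strand, and the Socs3 window is chr11:117969317-117969616 on the minus strand.
Cish: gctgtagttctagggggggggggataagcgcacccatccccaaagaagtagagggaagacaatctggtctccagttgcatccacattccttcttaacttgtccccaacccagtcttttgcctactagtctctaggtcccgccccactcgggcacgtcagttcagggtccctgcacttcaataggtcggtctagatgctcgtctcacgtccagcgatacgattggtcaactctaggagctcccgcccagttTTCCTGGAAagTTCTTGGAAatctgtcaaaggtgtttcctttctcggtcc
Socs3: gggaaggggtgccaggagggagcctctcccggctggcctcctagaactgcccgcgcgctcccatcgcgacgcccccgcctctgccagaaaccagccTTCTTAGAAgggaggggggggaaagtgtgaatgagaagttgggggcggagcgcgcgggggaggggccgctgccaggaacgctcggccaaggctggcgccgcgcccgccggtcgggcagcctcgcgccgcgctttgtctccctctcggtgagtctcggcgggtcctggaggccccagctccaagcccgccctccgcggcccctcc
Cish held 2 matches, TTCCTGGAA and TTCTTGGAA, beginning at bases 251 and 262 of the window, that is at the annotated start and 11 bases after it. Socs3 held 1 match, TTCTTAGAA, beginning at base 97 of its window. The promoter table held 13 windows for 9 of the 10 genes, all but Socs2, and no other gene among these had TTCNNNGAA. None of the 13 windows held TTCNNNNGAA, the spacing that STAT6 also accepts. Both motifs read the same on either strand, so each strand is covered, and a match of each may overlap in part. Of 32851 promoters of this length, 8.3% held TTCNNNGAA, 0.457% held it at least 2 times, and 6.95% held TTCNNNNGAA. A match is a run of letters and not a measured binding site.

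The libraries did not match their labels in every respect. Totals were 8552216 counts in DKO CXCR6+, 8285134 in DKO SLAMF6+, 6818658 to 8710148 in WT CXCR6+ and 8134987 to 11635037 in WT SLAMF6+. The targeted Il17a held 0 and 3 counts in DKO CXCR6+ and DKO SLAMF6+, against 1622 to 4751 counts in the WT libraries. Of all T cell receptor beta variable (Trbv) counts, Trbv16, the segment of the 2D2 receptor, took 9.96% in DKO CXCR6+ and 6.51% in DKO SLAMF6+, against 99.6% to 99.8% in the WT libraries. The sort gene Cxcr6 stood at 381 CPM in DKO CXCR6+, 162 CPM in DKO SLAMF6+, 4.33 to 42.8 CPM in WT CXCR6+, with 11.4 to 19.1 CPM in WT SLAMF6+, so the WT subsets overlapped. CPM here are counts divided by the library total after TMM scaling, as CPM are defined. Slamf6 stood at 75.7 CPM in DKO CXCR6+, 258 CPM in DKO SLAMF6+, 1.69 to 5.01 CPM in WT CXCR6+, with 5.89 to 11.0 CPM in WT SLAMF6+. Haemoglobin genes took 11.9% of the counts of DKO SLAMF6+ and under 0.001% elsewhere. Mitochondrial genes took 7.45% in DKO CXCR6+, 8.56% in DKO SLAMF6+, 12.9% to 17.6% in WT CXCR6+ and 2.2% to 5.24% in WT SLAMF6+. The mitochondrial transfer RNA gene mt-Ts1 was listed at 0 in WT CXCR6+ replicate 1 and WT SLAMF6+ replicates 1, 3, 4 and 5, and held 111496 counts or more in each other library.

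Nearly the whole group stood lower in the DKO libraries than in the WT libraries, Stat5a by the most, and Stat4 alone stood higher. Of the 10 genes, 1 rose and 7 fell in DKO CXCR6+ against WT CXCR6+, where 28.7% of all tested genes were called. In DKO SLAMF6+ against WT SLAMF6+, 1 rose and 8 fell, where 31.1% of all genes were called. A call is an adjusted p under 0.05 by the quasi-likelihood test of edgeR, adjusted by Benjamini-Hochberg over all tested genes (edgeR adjusted p). The median log2 fold change of the 10 genes was -1.02 in CXCR6+ and -1.23 in SLAMF6+, beside -0.22 and -0.05 over all tested genes. Each DKO group is 1 library, so the WT libraries alone supply the spread, and DKO is assumed to vary as much. In bulk samples, fewer cells of a type and less RNA per cell cannot be told apart. All 10 genes of the DKO libraries lay outside the range of the 5 WT libraries of their subset, 1 above and 9 below. That was so for 57.7% of all genes in CXCR6+ and 66% in SLAMF6+.

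**Figure D1:**
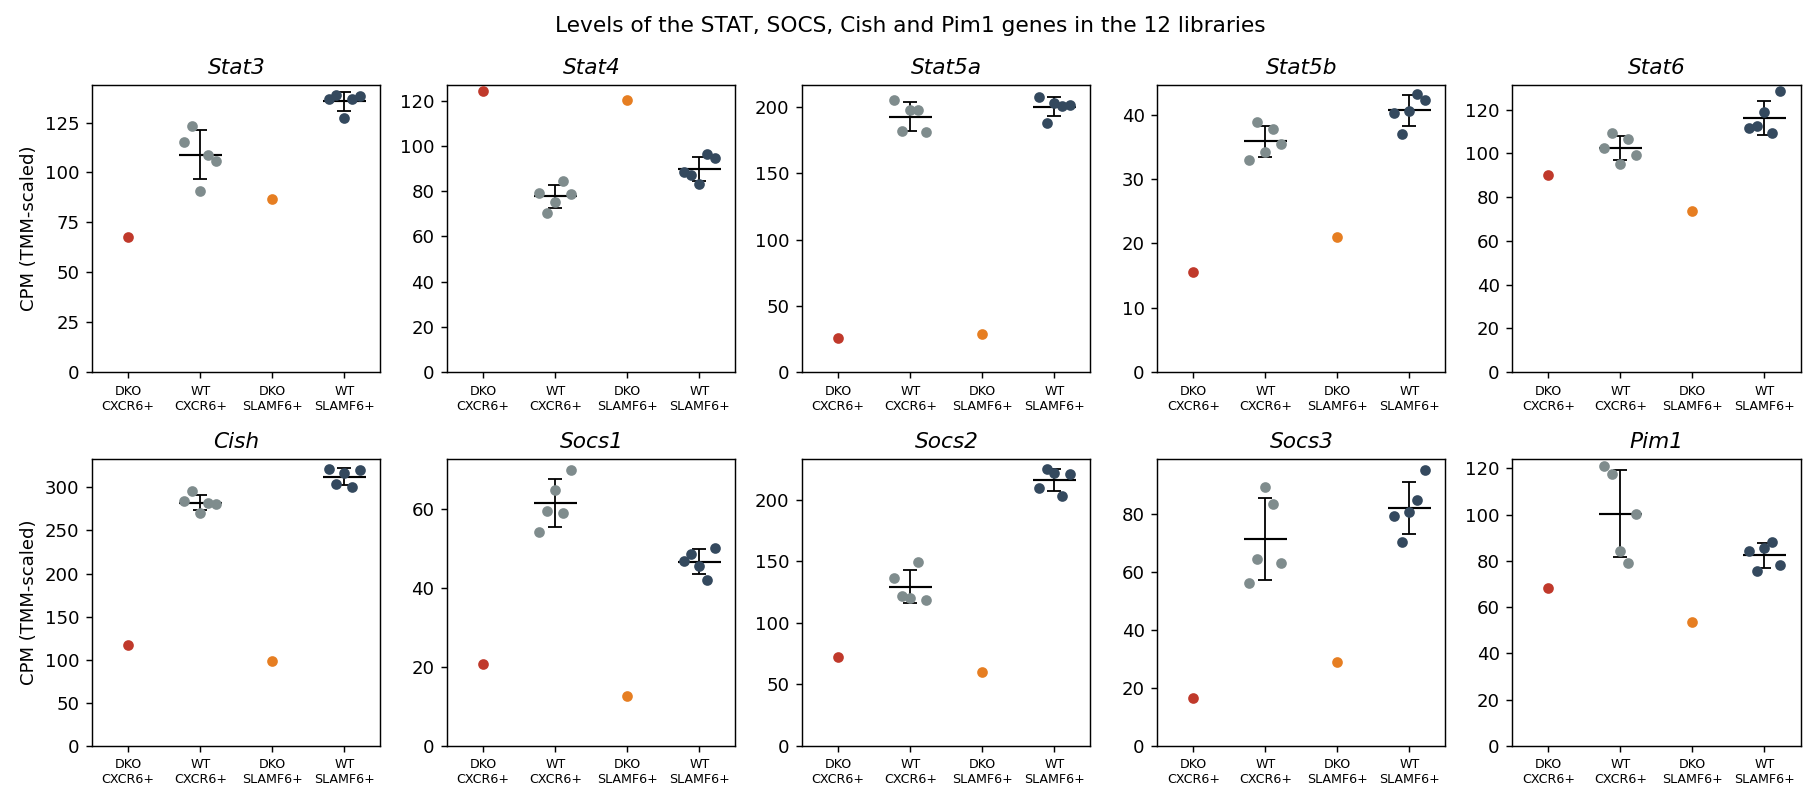
CPM (TMM-scaled, linear axis from 0) of the 10 genes in the 12 libraries, with DKO left of WT in each subset. Points are libraries, and bars are the mean ± SD of 5 WT libraries. Both DKO points lie below all 10 WT points for 9 genes and above them for Stat4.

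Stat5a encodes the STAT5 protein that, with STAT5B, carries IL-2 and IL-7 signals. Stat5a stood at 25.6 CPM in DKO CXCR6+, against 205, 182, 198, 198 and 181 CPM in WT CXCR6+ replicates 1 to 5. In SLAMF6+ it stood at 28.5 CPM in DKO, against 208, 188.5, 203, 201 and 202 CPM in WT. The DKO libraries lay close together and far below every WT library, which spanned 181 to 208 CPM over both subsets. Stat5a fell 7.53-fold in CXCR6+ (log2 fold change -2.91 ± 0.12 SE, edgeR adjusted p = 7.45e-08) and 7.04-fold in SLAMF6+ (-2.82 ± 0.12, edgeR adjusted p = 8.75e-08). Among 5453 genes with a mean of at least 20 CPM, 3.61% fell as far or further in CXCR6+ and 3.87% in SLAMF6+.

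Stat5b, the close paralog of Stat5a beside it on chromosome 11, changed less. It stood at 15.6 CPM in DKO CXCR6+, against 33.0, 38.9, 34.2, 37.8 and 35.5 CPM in WT CXCR6+. It stood at 21.0 CPM in DKO SLAMF6+, against 40.3, 37.0, 40.6, 43.3 and 42.2 CPM in WT SLAMF6+. Both DKO libraries lay below all WT libraries. Stat5b fell 2.30-fold in CXCR6+ (log2 fold change -1.20 ± 0.14 SE, edgeR adjusted p = 7.18e-05) and 1.94-fold in SLAMF6+ (-0.96 ± 0.14, edgeR adjusted p = 0.000321). The ratio of Stat5a to Stat5b counts was therefore 1.64 in DKO CXCR6+ and 1.36 in DKO SLAMF6+, against 5.41 ± 0.602 in WT CXCR6+ and 4.93 ± 0.215 in WT SLAMF6+ (SD, n = 5 each). No WT library had a ratio under 4.65. Of the 38-base windows of Stat5a transcripts, the length of 1 read, 10.2% also occur in Stat5b, and 13.5% of Stat5b windows occur in Stat5a, so the split of reads between the paralogs is uncertain to that extent.

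**Figure D2:**
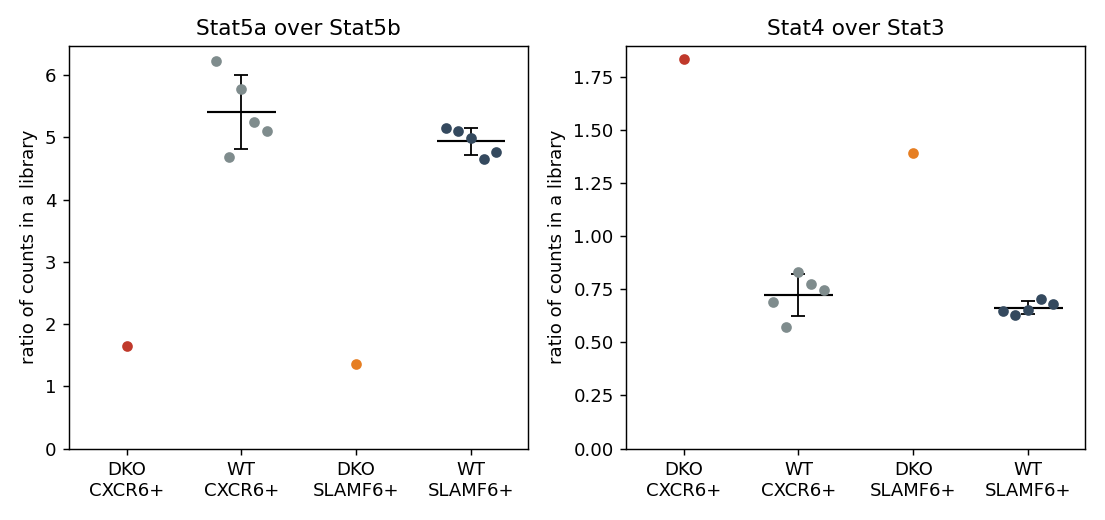
Ratio of counts of Stat5a to Stat5b (left) and of Stat4 to Stat3 (right) in each of the 12 libraries, on linear axes from 0, with DKO left of WT. Points are libraries, and bars are the mean ± SD of 5 WT libraries. Stat5a over Stat5b is 1.64 and 1.36 in the DKO libraries and at least 4.65 in every WT library, and Stat4 over Stat3 is above 1 in the DKO libraries only.

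Stat3 and Stat4 moved in opposite directions. Stat3, the STAT of IL-6 and IL-23, stood at 67.8 CPM in DKO CXCR6+, against 115, 123.5, 90.5, 109 and 106 CPM in WT CXCR6+. It stood at 86.7 CPM in DKO SLAMF6+, against 137, 139, 127.5, 137 and 138 CPM in WT SLAMF6+. Each DKO library lay below all WT libraries of its subset, in CXCR6+ by less than the WT libraries differed among themselves. Stat3 fell 1.60-fold in CXCR6+ (log2 fold change -0.68 ± 0.14 SE, edgeR adjusted p = 0.004) and 1.56-fold in SLAMF6+ (-0.65 ± 0.14, edgeR adjusted p = 0.00527). When GC content and transcript length entered as offsets, the CXCR6+ call was lost (log2 fold change -0.31, edgeR adjusted p = 0.105).

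Stat4, the STAT of IL-12 and of TH1 differentiation, stood at 124 CPM in DKO CXCR6+, against 79.3, 70.5, 75.2, 84.5 and 78.9 CPM in WT CXCR6+, and at 120.5 CPM in DKO SLAMF6+, against 88.5, 87.2, 83.3, 96.3 and 94.5 CPM in WT SLAMF6+. The DKO libraries nearly coincided and exceeded all 10 WT libraries. Stat4 rose 1.60-fold in CXCR6+ (log2 fold change 0.68 ± 0.11 SE, edgeR adjusted p = 0.00062) and 1.34-fold in SLAMF6+ (0.42 ± 0.11, edgeR adjusted p = 0.0123). The SLAMF6+ call was lost with no filter on low counts (0.37, edgeR adjusted p = 0.0966). It was also lost among the libraries holding mt-Ts1 counts, where WT SLAMF6+ is replicate 2 alone (0.47, edgeR adjusted p = 0.0732). The ratio of Stat4 to Stat3 counts was 1.83 in DKO CXCR6+ and 1.39 in DKO SLAMF6+, against 0.722 ± 0.0991 in WT CXCR6+ and 0.663 ± 0.030 in WT SLAMF6+.

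Stat6, the STAT of IL-4, differed from its relatives in that its call came in SLAMF6+ and not in CXCR6+. It stood at 90.2 CPM in DKO CXCR6+, against 102.5, 109, 95.1, 106 and 99.4 CPM in WT CXCR6+. It stood at 73.7 CPM in DKO SLAMF6+, against 112, 113, 119, 109 and 129 CPM in WT SLAMF6+. The CXCR6+ library lay just under the lowest WT library, and the SLAMF6+ library well under. Stat6 fell 1.58-fold in SLAMF6+ (log2 fold change -0.66 ± 0.11 SE, edgeR adjusted p = 0.00121), and its value in CXCR6+ was -0.18 ± 0.11 (edgeR adjusted p = 0.261). The difference between these effects, 0.47 ± 0.15, was not called (edgeR adjusted p = 0.0821).

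The 4 feedback inhibitors fell in both subsets. CISH binds receptors of the IL-2 family and blocks STAT5. Cish stood at 117 CPM in DKO CXCR6+, against 284, 296, 271, 281 and 281 CPM in WT CXCR6+. It stood at 98.3 CPM in DKO SLAMF6+, against 321, 303.5, 317, 301 and 320.5 CPM in WT SLAMF6+. The WT libraries of a subset differed little (SD 8.87 and 9.63 CPM in CXCR6+ and SLAMF6+), and both DKO libraries lay far below them. Cish fell 2.41-fold in CXCR6+ (log2 fold change -1.27 ± 0.09 SE, edgeR adjusted p = 1.78e-06) and 3.18-fold in SLAMF6+ (-1.67 ± 0.09, edgeR adjusted p = 4.31e-07). It fell less than Stat5a, so the ratio of Cish to Stat5a counts was 4.57 in DKO CXCR6+ and 3.45 in DKO SLAMF6+, against 1.47 ± 0.112 in WT CXCR6+ and 1.56 ± 0.0448 in WT SLAMF6+.

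Socs2, best known for damping growth hormone signals through STAT5, stood at 72.0 CPM in DKO CXCR6+, against 136.5, 122, 119.8, 149.5 and 119 CPM in WT CXCR6+. It stood at 60.0 CPM in DKO SLAMF6+, against 209, 225, 221, 203 and 220.5 CPM in WT SLAMF6+. Both DKO libraries lay below every WT library, while the WT subsets stood apart from each other. Socs2 fell 1.79-fold in CXCR6+ (log2 fold change -0.84 ± 0.14 SE, edgeR adjusted p = 0.000728) and 3.60-fold in SLAMF6+ (-1.85 ± 0.15, edgeR adjusted p = 5.45e-06).

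Socs1, an inhibitor of JAK activity and a brake on interferon signals, stood at 20.7 CPM in DKO CXCR6+, against 54.3, 59.6, 64.9, 58.9 and 69.9 CPM in WT CXCR6+, and at 12.6 CPM in DKO SLAMF6+, against 46.8, 48.6, 45.6, 41.9 and 50.1 CPM in WT SLAMF6+. Neither DKO library came near the WT libraries. Socs1 fell 2.98-fold in CXCR6+ (log2 fold change -1.57 ± 0.16 SE, edgeR adjusted p = 2.91e-05) and 3.71-fold in SLAMF6+ (-1.89 ± 0.17, edgeR adjusted p = 1.15e-05).

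Socs3, which binds the shared receptor chain of IL-6 and restrains STAT3, stood at 16.4 CPM in DKO CXCR6+, against 56.3, 64.4, 89.3, 83.6 and 63.2 CPM in WT CXCR6+. It stood at 29.0 CPM in DKO SLAMF6+, against 79.3, 70.3, 80.6, 84.7 and 95.2 CPM in WT SLAMF6+. The WT libraries varied more than for the other inhibitors, and both DKO libraries still lay below all of them. Socs3 fell 4.35-fold in CXCR6+ (log2 fold change -2.12 ± 0.28 SE, edgeR adjusted p = 0.00017) and 2.82-fold in SLAMF6+ (-1.50 ± 0.26, edgeR adjusted p = 0.00128).

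Pim1 stood at 68.4 CPM in DKO CXCR6+, against 121, 117.5, 84.4, 79.1 and 100.4 CPM in WT CXCR6+. It stood at 53.5 CPM in DKO SLAMF6+, against 84.2, 75.7, 85.6, 88.2 and 78.1 CPM in WT SLAMF6+. The DKO value lay below the WT range in each subset, but the WT CXCR6+ libraries were widely spread. The log2 fold changes were -0.55 ± 0.22 SE in CXCR6+ (edgeR adjusted p = 0.0822) and -0.62 ± 0.22 in SLAMF6+ (edgeR adjusted p = 0.0518), neither a call. Leaving out WT CXCR6+ replicate 4, the lowest of that group, made both of them calls (-0.63, edgeR adjusted p = 0.0285, and -0.62, edgeR adjusted p = 0.0269). Leaving out WT CXCR6+ replicate 1, 2 or 3 did so for SLAMF6+ alone (edgeR adjusted p = 0.038, 0.0461 and 0.0421).

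**Figure D3:**
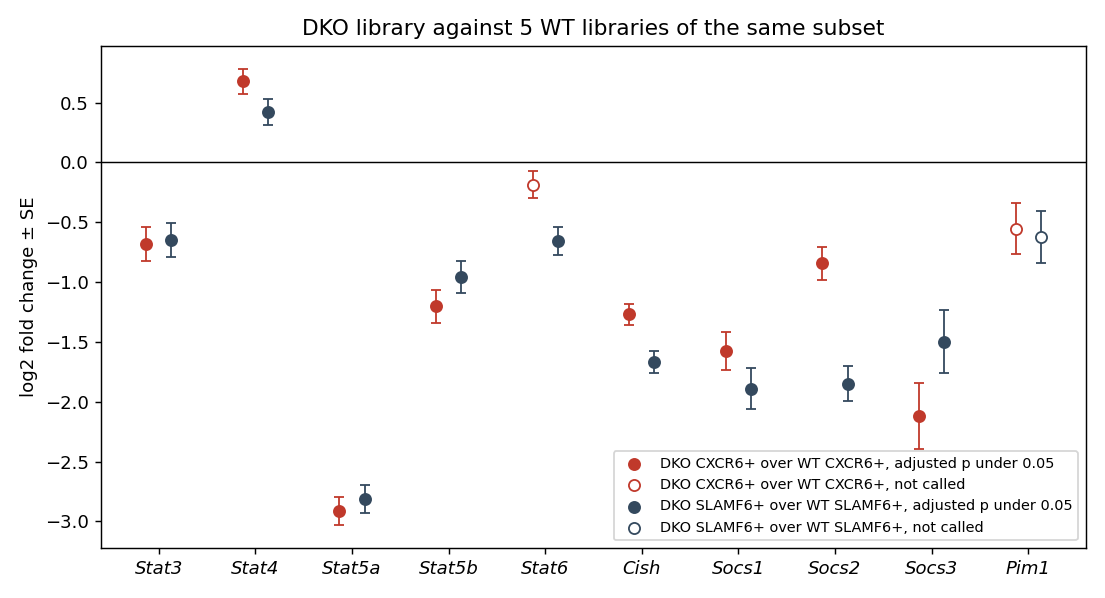
Log2 fold change ± SE of the 10 genes in the DKO library against 5 WT libraries of the same subset (linear axis, 0 is no difference). Filled points passed edgeR's adjusted p of 0.05, and open points did not. Stat5a is lowest at -2.91 and -2.82, and Stat4 alone lies above 0.

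Between the DKO libraries themselves there is no replicate and no test. With 95% exact intervals, which cover counting error only, the log2 ratio of DKO CXCR6+ to DKO SLAMF6+ was 0.04 (-0.09 to 0.18) for Stat4 and -0.15 (-0.44 to 0.13) for Stat5a, so neither differed beyond counting error. The widest gaps were Socs3, -0.83 (-1.15 to -0.51), and Socs1, 0.72 (0.34 to 1.10), in opposite directions. Those rest on 142 and 201 counts of Socs3 and 179 and 87 counts of Socs1 in DKO CXCR6+ and DKO SLAMF6+. The other 6 ratios lay between -0.43 (-0.78 to -0.08) for Stat5b and 0.36 (0.17 to 0.55) for Pim1. Each of these 6 also differed beyond counting error.

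The subset comparison and the genotype comparisons use the same WT libraries, so their values are set side by side only. Whether the difference between DKO and WT libraries was unlike between the subsets was tested as an interaction, CXCR6+ minus SLAMF6+. Socs2 (1.004 ± 0.18 SE on the log2 scale, edgeR adjusted p = 0.00713) and Cish (0.40 ± 0.11, edgeR adjusted p = 0.0467) were called, where 10.3% of all genes were. Both inhibitors fell further in SLAMF6+. The Socs2 call held in all 26 alternatives, with values of 0.70 to 1.08, and within the libraries holding mt-Ts1 counts it was 1.08 (edgeR adjusted p = 0.0324). The Cish call was lost in 22 of the 26, including when any of 9 WT libraries, all but WT CXCR6+ replicate 2, was left out (0.38 to 0.41, edgeR adjusted p 0.0505 to 0.0814). The other 8 values lay between -0.62 for Socs3 and 0.47 for Stat6, and none was called.

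Within WT, the subsets differed clearly in Socs2 and Socs1, in opposite directions, and by little in the rest. Socs2 averaged 129 ± 13.4 CPM in WT CXCR6+, against 216 ± 9.15 CPM in WT SLAMF6+ (SD, n = 5 each), with no overlap between the libraries. It fell 1.67-fold (log2 fold change -0.74 ± 0.07 SE, edgeR adjusted p = 2.05e-05). Socs1 averaged 61.5 ± 6.01 CPM in WT CXCR6+, against 46.6 ± 3.15 CPM in WT SLAMF6+, again without overlap, and rose 1.32-fold (0.40 ± 0.08, edgeR adjusted p = 0.00291). In all, 1 gene rose and 5 fell, where 33.3% of all genes were called, and 5 genes did not overlap between the WT subsets, as for 27.8% of all genes. The median log2 fold change of the 10 genes was -0.18, beside 0.13 over all tested genes.

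The other 4 calls were small decreases. Stat3 averaged 109 ± 12.3 CPM in WT CXCR6+, against 136 ± 4.6 CPM in WT SLAMF6+ (log2 fold change -0.32, edgeR adjusted p = 0.0087). Cish averaged 282 ± 8.87 and 312.5 ± 9.63 CPM in WT CXCR6+ and WT SLAMF6+ (-0.15, edgeR adjusted p = 0.0285). Stat4 was at -0.21 (edgeR adjusted p = 0.0271) and Stat6 at -0.18 (edgeR adjusted p = 0.0456). Stat5a, at 193 ± 10.7 CPM in WT CXCR6+, with 200.4 ± 7.18 CPM in WT SLAMF6+, was not called (-0.06, edgeR adjusted p = 0.453), nor were Stat5b (-0.18, 0.0769), Socs3 (-0.20, 0.265) and Pim1 (0.29, 0.0912). These small values depend on the scaling. Filtering at 10 CPM moved the median of the shared genes by 0.25 on the log2 scale, and Stat4, Stat5a, Stat5b, Stat6, Cish and Socs3 then took the opposite sign. Fits to the WT groups alone moved it by 0.13 and offsets for GC content and transcript length by 0.29.

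**Figure D4:**
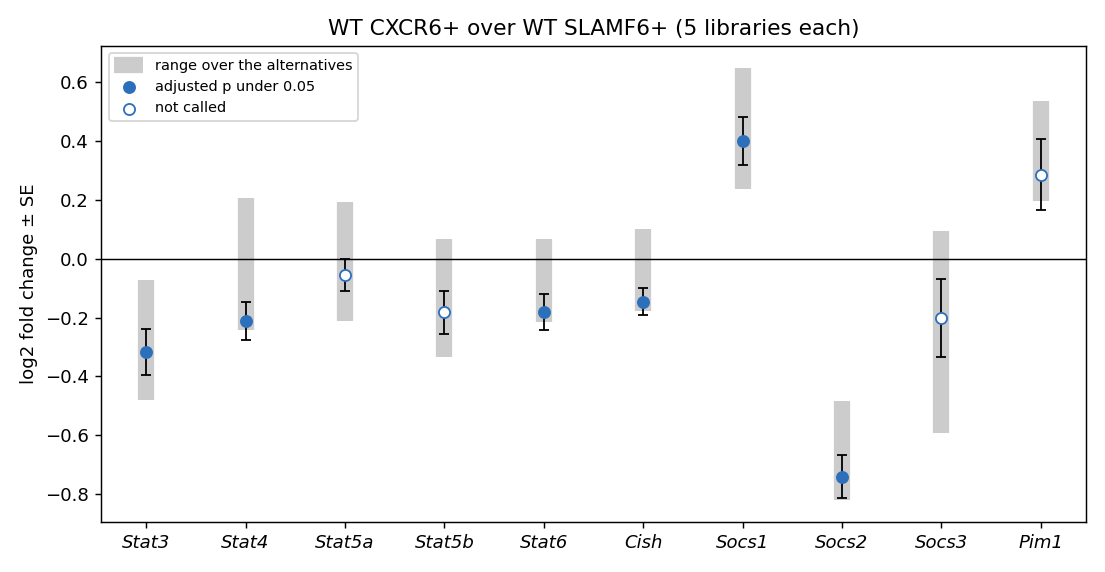
Log2 fold change ± SE of the 10 genes in WT CXCR6+ against WT SLAMF6+ (5 libraries each; linear axis, 0 is no difference). Filled points passed edgeR's adjusted p of 0.05, open points did not, and grey bars span the values under the alternatives. Socs1, Pim1, Socs2 and Stat3 keep their sign throughout, while the bars of the other 6 cross 0.

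Socs2 was called in all 30 alternatives of the WT comparison (-0.82 to -0.48) and Socs1 in 28 (0.24 to 0.65). Stat3 was called as a fall in 25, Stat4 in 14, Cish in 11 and Stat6 in 7. With the offsets for GC content and transcript length, Stat4 was called as a rise (0.21, edgeR adjusted p = 0.0161). Among libraries with mt-Ts1 at 0, which hold WT CXCR6+ replicate 1 alone, Socs2 was at -0.65 (edgeR adjusted p = 0.0165) and Socs1 at 0.24 (edgeR adjusted p = 0.314). Among those holding mt-Ts1 counts, which hold WT SLAMF6+ replicate 2 alone, Socs2 was at -0.82 (edgeR adjusted p = 0.00473) and Socs1 at 0.38 (edgeR adjusted p = 0.138). With the DKO CXCR6+ library out of the fit, the calls of Stat4, Stat6 and Cish were lost and that of Pim1 was gained (0.34, edgeR adjusted p = 0.0476).

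Leaving out 1 WT library at a time ended 3 of the small calls. The Stat6 call was lost without WT CXCR6+ replicates 1, 3 or 5 or any WT SLAMF6+ replicate but 4 (edgeR adjusted p 0.0542 to 0.107). The Cish call was lost without WT CXCR6+ replicates 1, 3 or 5 or WT SLAMF6+ replicates 1, 3 or 5 (edgeR adjusted p 0.0514 to 0.071). The Stat4 call was lost without WT CXCR6+ replicates 2 or 3 or WT SLAMF6+ replicates 4 or 5 (edgeR adjusted p 0.0538 to 0.0712). Without WT CXCR6+ replicate 3, or without WT SLAMF6+ replicate 5, 3 of the 10 genes were called.

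Per kilobase of merged exons, a scale on which genes can be compared, Cish was the most abundant of the group in WT, at 44.0 ± 1.38 CPM per kb in WT CXCR6+ and 48.7 ± 1.5 in WT SLAMF6+, with no library overlapping the next gene. In WT CXCR6+ there followed Pim1 at 29.9, Stat5a at 27.1, Socs3 at 24.7, Stat6 at 23.3, Socs1 at 21.2 and Stat4 at 20.1 CPM per kb, each overlapping its neighbour. Socs2 at 13.6 and Stat3 at 11.4 CPM per kb overlapped each other, and Stat5b was lowest at 6.48, without overlap. In WT SLAMF6+ the genes from Socs3 at 28.4 to Socs2 at 22.7 CPM per kb overlapped in a chain, and Stat5b was again lowest at 7.35. In DKO CXCR6+ and DKO SLAMF6+, Stat4 led at 32.1 and 31.1 CPM per kb and Stat5b came last at 2.81 and 3.78, with Stat5a just above it at 3.59 and 3.99. With the longest transcript as the length, Cish stayed first and Stat5b last in both WT subsets, while Socs2 moved to the fourth place in WT CXCR6+ and the second in WT SLAMF6+. On that length, Stat5b stayed last in DKO CXCR6+ and DKO SLAMF6+, at 2.99 and 4.02 CPM per kb. Stat5a then stood further above it, at 6.47 and 7.19, with Socs3 (6.42) between them in CXCR6+ and Socs1 (4.32) in SLAMF6+.

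The rest of the pathway, 84 genes in 14 lists of which 80 were tested, is given next by lists of roles. In DKO CXCR6+ against WT CXCR6+, 13 rose and 38 fell (63.7%), and in DKO SLAMF6+ against WT SLAMF6+, 12 rose and 38 fell (62.5%). These shares stand beside the 28.7% and 31.1% of all genes. The lists overlap in a few genes, which are counted once here. In WT CXCR6+ against WT SLAMF6+, 12 rose and 21 fell (41.2%, beside 33.3%).

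Of the ligands, 14 of 18 were tested, 6 fell and none rose in either DKO subset. Il21, an autocrine TH17 cytokine that signals through STAT3, held 0 counts in DKO CXCR6+, against 220.3 ± 23.3 CPM in WT CXCR6+, which with a floor of 3 counts is at least 636-fold lower (edgeR adjusted p = 2.28e-08). Il13, a STAT6 ligand, held 0 counts in both DKO libraries, at least 229-fold lower in CXCR6+ and at least 101-fold lower in SLAMF6+. Lif, a STAT3 ligand, held 0 counts in DKO CXCR6+, at least 485-fold lower than the 168 ± 22.8 CPM of WT CXCR6+. Osm stood at 13.6 CPM in DKO CXCR6+, against 30.5 ± 4.29 CPM in WT CXCR6+, and at 10.8 CPM in DKO SLAMF6+, against 30.2 ± 2.7 CPM in WT SLAMF6+. The list's median log2 fold change was -4.30 in CXCR6+ and -5.40 in SLAMF6+, or -3.42 and -2.79 with genes at 0 set to their bound and those at or under the floor in both groups left out. In WT CXCR6+ against WT SLAMF6+, Il13 rose and Il4 fell, and 12 ligands were not called.

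Il2ra, the high-affinity IL-2 receptor chain and a STAT5 target, stood at 23.0 CPM in DKO CXCR6+, against 950.4 ± 70.9 CPM in WT CXCR6+, and at 14.6 CPM in DKO SLAMF6+, against 805.5 ± 25.4 CPM in WT SLAMF6+. The log2 fold changes were -5.37 and -5.79 (edgeR adjusted p = 1.11e-08 and 1.8e-08 in CXCR6+ and SLAMF6+). Il7r, the IL-7 receptor chain, rose in both, to 285 CPM in DKO CXCR6+, against 91.5 ± 17.5 CPM in WT CXCR6+, and to 307 CPM in DKO SLAMF6+, against 79.1 ± 4.34 CPM in WT SLAMF6+. Of the 6 STAT5 receptor genes, 2 rose and 2 fell in each subset (medians 0.55 and 0.25). Il2rb was among those that rose in CXCR6+ and among those that fell in SLAMF6+ (0.48 and -0.69), and the interaction was called (1.17, edgeR adjusted p = 0.00116).

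Both receptor genes of IL-12, the STAT4 cytokine, fell in both subsets while Stat4 rose (list medians -2.53 and -3.04). Il12rb2 stood at 15.0 CPM in DKO CXCR6+, against 174 ± 14.9 CPM in WT CXCR6+, and at 13.7 CPM in DKO SLAMF6+, against 329 CPM in WT SLAMF6+. Of 8 receptor genes of STAT3 cytokines, 2 rose and 5 fell in CXCR6+ and 3 rose and 3 fell in SLAMF6+ (medians -1.29 and 0.62). Il23r, the IL-23 receptor, stood at 1.85 CPM in DKO CXCR6+, against 36.0 ± 1.13 CPM in WT CXCR6+, whereas Il27ra stood at 141 CPM in DKO CXCR6+, against 32.4 ± 4.08 CPM in WT CXCR6+. Of 3 STAT6 receptor genes, Il4ra alone was called, at 40.6 CPM in DKO CXCR6+, against 236 ± 27.0 CPM in WT CXCR6+, and 42.6 CPM in DKO SLAMF6+, against 317 ± 12.4 CPM in WT SLAMF6+. The medians of that list were -2.54 and 0.22, or -0.96 in CXCR6+ with Il13ra1, at 0 in DKO and under the floor in WT, left out.

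Among the JAKs, Jak1 rose and Jak2 and Jak3 fell in both DKO subsets, and Tyk2 was not called (list medians -0.66 and -0.15). Jak2 fell further in CXCR6+, to 9.69 CPM in DKO, against 47.15 ± 3.24 CPM in WT (log2 fold change -2.28). In SLAMF6+, Jak2 stood at 17.6 CPM in DKO, against 24.4 ± 1.96 CPM in WT (-0.47). The interaction of Jak2 was called (-1.81). Jak1 stood at 200.3 CPM in DKO CXCR6+, against 57.9 ± 6.24 CPM in WT CXCR6+, and at 190.0 CPM in DKO SLAMF6+, against 79.2 ± 3.61 CPM in WT SLAMF6+. Jak3, the kinase that pairs with the common gamma chain, stood at 51.2 CPM in DKO CXCR6+, against 148 ± 10.3 CPM in WT CXCR6+, and at 65.9 CPM in DKO SLAMF6+, against 161 ± 4.14 CPM in WT SLAMF6+. Of the list of 4 other STATs and partners, 2 rose and 1 fell in CXCR6+ and 1 rose and 2 fell in SLAMF6+ (medians 0.30 and -0.29). Of the 4 other SOCS genes, Socs7 alone was called, lower in DKO CXCR6+ at 1.38 CPM, against 5.45 ± 0.473 CPM in WT CXCR6+ (medians -0.39 and 0.15). Both other PIM kinases fell in both subsets (medians -2.06 and -2.77), with Pim3 at 15.1 CPM in DKO CXCR6+, against 102 ± 7.05 CPM in WT CXCR6+, and 9.54 CPM in DKO SLAMF6+, against 88.2 ± 16.2 CPM in WT SLAMF6+. Of 11 other inhibitors, among them phosphatases and PIAS proteins, 2 rose and 2 fell in CXCR6+ and 2 rose and 4 fell in SLAMF6+ (medians 0.29 and 0.40).

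Of 8 STAT5 target genes, 7 fell and none rose in each DKO subset (medians -1.66 and -1.46). Beside Il2ra, Bcl2l1, which encodes a survival protein, stood at 39.8 CPM in DKO CXCR6+, against 149 ± 12.5 CPM in WT CXCR6+, and at 56.6 CPM in DKO SLAMF6+, against 146 ± 11.2 CPM in WT SLAMF6+. Of 11 STAT3 target genes, 1 rose and 8 fell in CXCR6+ and 1 rose and 7 fell in SLAMF6+ (medians -2.51 and -2.48). Hif1a, a regulator of glycolysis in TH17 cells, stood at 38.8 CPM in DKO CXCR6+, against 327 ± 23.1 CPM in WT CXCR6+, and at 54.0 CPM in DKO SLAMF6+, against 473 ± 18.7 CPM in WT SLAMF6+. Of 6 STAT6 target genes, 4 fell in CXCR6+ and 5 in SLAMF6+, and none rose (medians -2.70 and -3.04).

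The 8 STAT4 target genes were divided, with 3 higher and 4 lower in CXCR6+ and 2 higher and 4 lower in SLAMF6+ (medians -0.99 and -1.02, the second -0.94 with a gene at 0 set to its bound). Il18rap, a receptor chain of IL-18, stood at 88.1 CPM in DKO CXCR6+, against 1.55 ± 0.688 CPM in WT CXCR6+, and at 56.4 CPM in DKO SLAMF6+, against 1.03 ± 0.327 CPM in WT SLAMF6+. Gadd45g, a stress gene induced by IL-12, stood at 7.15 CPM in DKO CXCR6+, against 90.8 ± 7.92 CPM in WT CXCR6+, and at 13.3 CPM in DKO SLAMF6+, against 80.7 ± 7.17 CPM in WT SLAMF6+.

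In WT CXCR6+ against WT SLAMF6+ the same lists showed smaller differences. Jak2 rose, at 47.1 ± 3.24 CPM in WT CXCR6+, with 24.4 ± 1.96 CPM in WT SLAMF6+ (0.95, edgeR adjusted p = 7e-06). Il2rb fell (-0.90, edgeR adjusted p = 7.68e-07), as did Il12rb2 (-0.92, edgeR adjusted p = 4.26e-06) and Pim2 (-0.92, edgeR adjusted p = 0.00067). Among targets, 2 of STAT5, 1 of STAT3, 1 of STAT4 and 1 of STAT6 rose, and 0, 4, 1 and 3 fell in that order of lists.

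Markers of other cells differed between the DKO and WT libraries. The 18 myeloid markers summed to 1715 CPM in the CXCR6+ and 771.6 CPM in the SLAMF6+ library of DKO, against 39.1 to 66.6 CPM in WT CXCR6+, with 73.3 to 99.6 CPM in WT SLAMF6+. Most of the DKO CXCR6+ sum was Ly6c2, S100a8 and S100a9, at 658, 497 and 425.5 CPM. In DKO SLAMF6+ these stood at 363, 26.2 and 45.5 CPM. Of the 17 tested, 7 rose and 2 fell in CXCR6+ and 11 rose and 2 fell in SLAMF6+, and C1qc and P2ry12 were at 0 in both DKO libraries. The 8 NK and cytotoxic markers summed to 1204 CPM (CXCR6+) and 979 CPM (SLAMF6+) in DKO, against 228 to 461 CPM in the WT libraries, with 3 and 7 higher in CXCR6+ and SLAMF6+ and 1 lower in each. The 5 erythroid markers summed to 2.65 CPM (CXCR6+) and 143400 CPM (SLAMF6+) in DKO, against at most 3.58 CPM in a WT library. The 9 neural markers summed to 59.5 CPM (CXCR6+) and 47.3 CPM (SLAMF6+) in DKO, against 18.3 to 26.4 CPM in WT, with Snap25 and Gfap at 0 in both DKO libraries. Most of the DKO sum was Mbp, at 59.1 CPM (CXCR6+) and 44.2 CPM (SLAMF6+). Its WT means were 13.7 CPM in CXCR6+ and 19.6 CPM in SLAMF6+. Of the 4 tested, 1 rose (Mbp) and 2 fell (Slc1a2 and Snap25) in each subset. The 7 B cell markers summed to 5.88 and 1.3 CPM in DKO CXCR6+ and DKO SLAMF6+, against 24.1 to 36.9 CPM in WT. Most of the WT sum was Ebf1, which averaged 31.9 (CXCR6+) and 25.6 (SLAMF6+) CPM there and was at 0 in both DKO libraries. Of the 3 tested, 1 fell in each subset (Ebf1). Cd79b rose in CXCR6+ only, at 4.85 CPM in DKO, against a WT mean of 0.25 CPM. Of the 9 T cell markers, 5 rose and 2 fell in each subset, and they summed to 6520 CPM (CXCR6+) and 7502 CPM (SLAMF6+) in DKO, against 21730 to 38730 CPM in WT, most of the WT sum being Trbc2. Of the 5 TH17 markers, 1 rose and 3 fell in each subset, and they summed to 77.5 and 71.1 CPM in DKO CXCR6+ and DKO SLAMF6+, against 301 to 600.2 CPM in WT. The part of other cells in the values of the 10 genes was not tested.

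The genes most like Cish over the 12 libraries, by Pearson correlation of log2(CPM + 1) among 5055 genes, were Tfrc, Prelid2, Tgm2, Irf4 and Bub1b (0.995, 0.995, 0.995, 0.994 and 0.994). The points share the contrast of 2 DKO with 10 WT libraries, so this is a description. Tfrc, the transferrin receptor, stood at 6.11 CPM (CXCR6+) and 3.18 CPM (SLAMF6+) in DKO, against means of 106 and 134 CPM in WT CXCR6+ and WT SLAMF6+. Within the group, Cish went most closely with Stat5a (0.984) and against Stat4 (-0.803). The genes most like Socs3 were Cacna1s, Nat9, Tmem205, Srp54c and Scarb1 (0.981, 0.977, 0.975, 0.973 and 0.972).

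Several of the 10 genes share sequence or position with others, and the libraries do not mark the strand. Stat5b, Stat5a and Stat3 lie next to each other on chromosome 11 between 100780731 and 100939540 (GRCm38), and the ends of Stat5a and Stat3 overlap on opposite strands. Of 6511 Cish windows, 652 occur in another gene. These are chiefly the antisense Gm17041 and the pseudogene Gm17040 (at most 3.71 CPM in a group), both on the opposite strand. For Pim1 that share was 10.3%, with the antisense Gm26885 (at most 2.81 CPM), and for Stat4 22.9%, with Gm28177 (at most 0.296 CPM). The pseudogene Gm3940 lies inside Stat4 on the opposite strand and stood at 63.1 and 49.7 CPM in DKO CXCR6+ and DKO SLAMF6+, against 30.8 and 21.1 CPM in WT CXCR6+ and WT SLAMF6+. It shares no window with Stat4 transcripts, and its part in the Stat4 values was not tested. For Socs2 it was 5.66%, for Stat3 1.34% and for Stat6 0.0677%, and Socs1 and Socs3 shared none.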

How the data were processed

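RNA was measured in 12 libraries of 1000 sorted cells each by a modified SMART-Seq2 protocol and Nextera XT, sequenced as paired 38-base reads, per the labels' protocols. The deposited table holds estimated counts per gene symbol, which the authors made with RSEM 1.3.3 after STAR 2.7.7a alignment to mm10, per the submitters' processing notes, and which are whole numbers as deposited. For the annotation and the read filters the sources used here give nothing, and the libraries carry no molecular identifiers, so intervals and floors cover counting error only.

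From these counts, edgeR 4.0.16 (R 4.3.3) fitted 4 groups over all 12 libraries (TMM scaling, filterByExpr, 21565 genes, quasi-likelihood tests, 8 residual degrees of freedom, Benjamini-Hochberg adjustment over all tested genes, threshold 0.05). The procedure was also run on simulated data, and the outcome of that run is not given here. Alternatives used DESeq2 1.42.0 and limma 3.58.1. Genes named in the lists are up to 4 per list and comparison with the smallest p among those called, and those named outside that rule (Tyk2, Il13ra1, the genes of the library checks, the cell markers and the overlapping genes) were chosen after their values were seen. The members and lists were chosen with earlier results of these data known. Lengths come from GENCODE M21, where 41368 symbols matched 1 gene, and promoters from RefSeq (GRCm38.p6). The floor for genes at 0 is 3 counts over the group. Replicate numbers in the labels were not used to pair the libraries in the main fit, and whether same-numbered WT libraries share mice is not known. Some results are not reported here because they concern withheld items.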

Additional observations from a re-analysis of the deposited data

Results flagged for a closer look

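Stat3 in WT SLAMF6+ had a lowest library, replicate 3 at 127.5 CPM, that lay far from the other 4, which spanned 137 to 139 CPM. It was 1 of 20 groups of WT values looked at, and chance sets apart about 1 in 20 groups.

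An interaction of genotype and subset was called for Socs2 (1.004 on the log2 scale, edgeR adjusted p = 0.00713) and for Cish (0.3993, edgeR adjusted p = 0.0467). The Cish call was lost in 22 of the 26 alternatives. Both genes fell further in DKO SLAMF6+ against WT SLAMF6+ than in DKO CXCR6+ against WT CXCR6+. Each side rests on 1 DKO library, and haemoglobin genes took 11.9% of the counts of DKO SLAMF6+. Their part in these values was not tested.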

How the results depend on the processing

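Across 27 alternatives, the falls of Stat5a, Stat5b, Cish, Socs1, Socs2 and Socs3 were called in both genotype comparisons, as was the rise of Stat4 in CXCR6+. With a 2-fold minimum, 0 of the 10 genes were called in WT CXCR6+ against WT SLAMF6+, 5 in DKO CXCR6+, 5 in DKO SLAMF6+ and 1 in the interaction. DESeq2's Wald test called 6, 9, 10 and 3 in that order, beside 6, 8, 9 and 2 with edgeR. The WT count was 3 with no filter on low counts, with the WT groups alone or with a term for mt-Ts1, and 1 within either set of mt-Ts1 libraries. The interaction count was 1 with DESeq2's size factors, no filter, a 10 CPM filter, the mt-Ts1 term, the libraries holding mt-Ts1 counts or limma-voom. Leaving out libraries gave 3 to 7, 8 to 9, 9 to 10 and 1 to 2 of the 10 genes, and 5825 to 6949 genes in the WT comparison and 1687 to 2347 in the interaction, against 7183 and 2221.

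The number of genes called was 2842 in the WT comparison with a 2-fold minimum, 3384 within libraries with mt-Ts1 at 0 and 2415 within those holding its counts, where it was 4234 in DKO SLAMF6+ against 6697, and 1034 in the interaction. With the offsets for GC content and length, 4190 genes rose and 2116 fell in the WT comparison, against 3364 and 3819; 4356 rose and 2707 fell in DKO SLAMF6+, against 2913 and 3784; and 685 were above and 924 below 0 in the interaction, against 1372 and 849, or 1064 and 1208 with the 10 CPM filter.

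Signs turned in the WT comparison with the 10 CPM filter for Stat4 (0.0368), Stat5a (0.19, edgeR adjusted p = 0.00854), Stat5b (0.0658), Stat6 (0.0663), Cish (0.10) and Socs3 (0.0503); with the WT groups alone for Stat5a (0.0741); with the offsets for Stat4 (0.21, edgeR adjusted p = 0.0161); with the mt-Ts1 term for Stat5a (0.012); and within the mt-Ts1 sets for Stat5a (0.0138 and 0.0101) and Socs3 (0.0947). With the offsets, Stat6 was at 0.0572 in DKO CXCR6+, and the interactions of Stat3, Stat4 and Stat5a were 0.10, -0.15 and 0.0186. The interaction of Pim1 was -0.0735 with the mt-Ts1 term, -0.18 with the 10 CPM filter and -0.0327 to 0.1591 without 1 or 2 WT libraries, and that of Stat3 was 0.0118 with no filter, 0.0164 within mt-Ts1 counts and -0.0971 to 0.0109 without 1 or 2 WT libraries. The cause was not tested.

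The replicate numbers were not used to pair the libraries in the main fit. Deviations of same-numbered WT libraries correlated at -0.006 to 0.039, which cannot show whether these libraries share mice. With replicate as a fixed block, 4, 8, 9 and 1 of the 10 genes and 6944, 5583, 6030 and 1557 genes were called, and as a random block 6, 8, 9 and 1 of the 10 genes. The fits without a DKO library were chosen after seeing the data.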
